A study of Mus musculus with 2 samples.

Results

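Skeletal muscle fibres contract when a voltage change in the surface membrane releases calcium from an internal store, and the proteins that make this link sit together at the triad. In the triad a tubule of the surface membrane (T-tubule) lies between a pair of terminal cisternae of the sarcoplasmic reticulum, the calcium store. In skeletal muscle the voltage-gated calcium channel of the tubule, also called the dihydropyridine receptor, acts mainly as a voltage sensor that opens the ryanodine receptor of the reticulum through physical contact. The 10 genes described here encode parts of that apparatus. They are Cacna1s, Cacnb1, Cacng1 and Cacna2d1 (subunits of the voltage sensor), Stac3 (its adaptor), Ryr1 and Ryr3 (calcium release channels), Jph1 and Jph2 (junctophilins, which hold the membranes together) and Trdn (triadin, an anchor in the reticulum). They were listed by name, with earlier results of these data known, and all 10 were found by symbol among the 55536 annotated genes.

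The RNA came from the gastrocnemius, a fast calf muscle, taken from male adult 5xFAD/CAST mice at an age of 8 to 10 months. The labels describe the animals as a cross of 5xFAD, a model of Alzheimer's disease that carries mutant human transgenes, with CAST, an inbred strain derived from Mus musculus castaneus. There was 1 group of 2 total RNA libraries, called biological replicates 1 and 2, which had separate biosample entries under 1 donor entry. No wild-type or other comparison group was part of the series, so transgene, strain and age cannot be told apart here and the levels below are descriptions. With 1 library on each side no p-value was drawn, and the labels do not say whether the spread between the libraries is that of separate animals.

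Each library came with gene and transcript tables in the layout of RSEM, called here the RSEM table, and with a transcript table in the layout of kallisto, called the kallisto-layout table. Both programs assign reads to annotated transcripts, and an expected count is the sum of reads so assigned. The libraries of replicates 1 and 2 held 35163970 and 35412240 expected counts over gene rows, and over 9741 genes the libraries differed well beyond counting error (chi-square per degree of freedom 12.1). Marker levels were those of fast skeletal muscle, and they cannot tell the gastrocnemius from another fast muscle. All 8 fast fibre genes exceeded 10 TPM, the deposited length-scaled abundance, and summed to 64748 TPM in replicate 1 and 62640 TPM in replicate 2. The 6 slow fibre genes also all exceeded 10 TPM and summed to 1395 and 1222 TPM in replicates 1 and 2. The 4 adipocyte genes summed to 177 and 121 TPM and the 4 fibroblast genes to 201 and 199 TPM. The 6 endothelial genes summed to 57.2 and 42.2 TPM, and the 6 smooth muscle and pericyte genes to 147 and 116 TPM. None of these markers was at 0. Of the 4 cardiac markers, Nppa stood at 0.15 and 0.14 TPM, Tnni3 at 0.80 and 0.85 TPM and Tnnt2 at 1.80 and 1.93 TPM in replicates 1 and 2. Myh6 alone was higher, at 56.5 and 56.9 TPM in the RSEM table and 20.4 and 20.6 TPM in the kallisto-layout table.

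Several triad genes are known for alternative exons, and the transcript tables resolve them only through the annotated transcripts. The sequences that tell the forms apart are therefore given first, from the GENCODE M21 transcripts on mm10, 5′ to 3′ on the gene's strand. They are those of the reference strain and not of the CAST allele. Capitals mark the exon, or for the Cacnb1 starts the first 30 bases from the RefSeq start, and lower case marks the 15 bases of the neighbouring exons on either side or the 250 bases before the RefSeq start.
Cacna1s 57-nt exon, chr1:136104570-136104626, + strand: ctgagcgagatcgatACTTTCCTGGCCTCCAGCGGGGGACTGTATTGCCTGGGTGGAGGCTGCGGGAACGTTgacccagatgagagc
Ryr1 15-nt exon, chr7:29056234-29056248, - strand: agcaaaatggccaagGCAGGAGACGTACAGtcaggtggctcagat
Cacnb1 155-nt exon, chr11:98011343-98011497, - strand: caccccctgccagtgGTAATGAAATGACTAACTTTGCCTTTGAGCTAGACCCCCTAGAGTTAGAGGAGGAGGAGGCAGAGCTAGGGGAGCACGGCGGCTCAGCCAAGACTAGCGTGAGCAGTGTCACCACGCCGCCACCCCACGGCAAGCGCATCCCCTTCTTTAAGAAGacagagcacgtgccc
Cacnb1 20-nt exon, chr11:98010627-98010646, - strand: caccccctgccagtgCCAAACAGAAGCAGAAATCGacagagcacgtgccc
Cacna2d1 57-nt exon, chr5:16322539-16322595, + strand: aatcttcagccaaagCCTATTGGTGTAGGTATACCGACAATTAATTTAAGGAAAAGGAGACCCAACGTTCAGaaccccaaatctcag
Trdn 60-nt exon, chr10:33200163-33200222, + strand: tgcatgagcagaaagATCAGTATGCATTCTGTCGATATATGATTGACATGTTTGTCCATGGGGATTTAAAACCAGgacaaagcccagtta
Cacnb1 downstream start, chr11:98018343-98018622, - strand: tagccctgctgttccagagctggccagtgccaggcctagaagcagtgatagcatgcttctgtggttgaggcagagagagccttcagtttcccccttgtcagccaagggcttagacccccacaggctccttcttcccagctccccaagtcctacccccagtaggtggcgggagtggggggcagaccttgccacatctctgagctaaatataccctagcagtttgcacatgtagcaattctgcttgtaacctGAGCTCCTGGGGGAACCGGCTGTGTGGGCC
Cacnb1 upstream start, chr11:98022598-98022877, - strand: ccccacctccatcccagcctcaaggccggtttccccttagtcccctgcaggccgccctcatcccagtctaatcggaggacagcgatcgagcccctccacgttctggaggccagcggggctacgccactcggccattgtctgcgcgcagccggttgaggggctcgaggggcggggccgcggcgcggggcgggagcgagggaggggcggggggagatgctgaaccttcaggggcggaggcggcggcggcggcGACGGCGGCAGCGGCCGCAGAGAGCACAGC
The start regions are RefSeq windows on GRCm38.p6, whose chromosome coordinates are those of mm10. They are shown because Cacnb1 was the only one of the 5 members with a RefSeq window whose windows did not overlap. The Cacna1s, Ryr1, Cacna2d1 and Trdn exons keep the reading frame when they are left out. The Cacnb1 exons of 155 and 20 nt replace each other between the same neighbours, as their shared lower-case flanks show.

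Of the 10 genes, 9 were abundant and Ryr3 was close to absent. Together the 10 genes held 1.37% of all gene counts in replicate 1 and 1.33% in replicate 2, from 482583 and 472485 expected counts. Their summed level was 2726 TPM in replicate 1 and 2569 TPM in replicate 2. The median member stood at 179 TPM in replicate 1 and 168 TPM in replicate 2, beside 9.57 and 8.69 TPM for the 9331 protein-coding genes with a mean of at least 100 counts. Ryr1 alone took 69.5% and 68.8% of the members' counts but 32.3% and 31.4% of their TPM in replicates 1 and 2. Its leading transcript is 15358 nt long, and TPM divides by length.

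**Figure D1:**
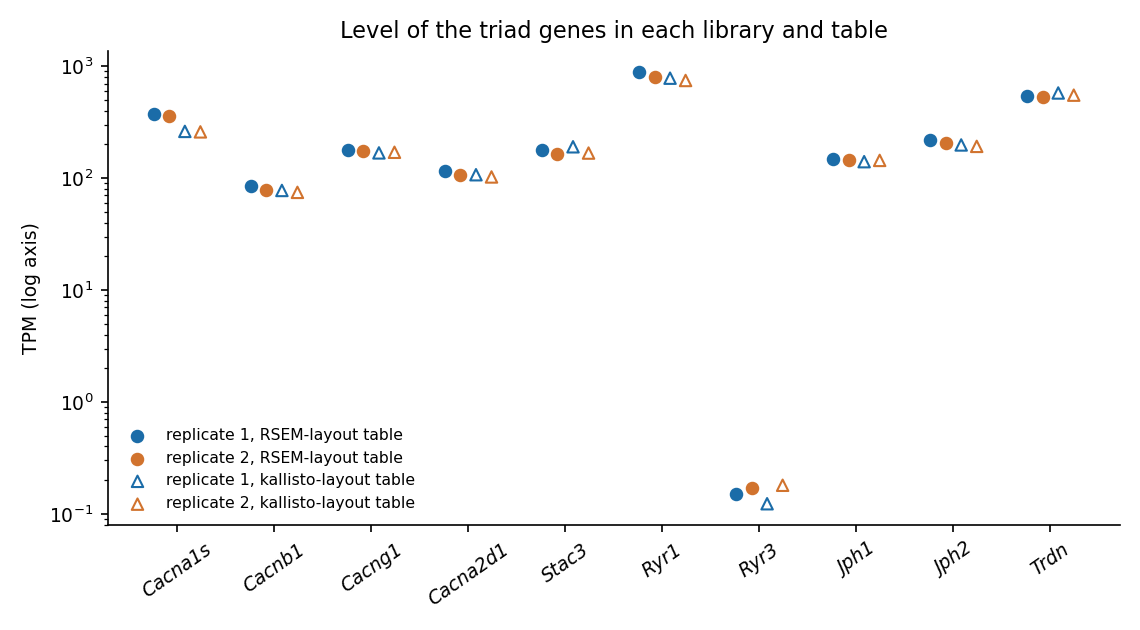
Level of each triad gene in TPM on a log axis, by library and by deposited table; circles are the RSEM table and triangles the kallisto-layout table. The 9 abundant genes lie between 74.6 and 882 TPM in all 4 readings and Ryr3 lies between 0.12 and 0.18 TPM; Cacna1s is the only gene whose tables are visibly apart.

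The pore-forming subunit led the voltage sensor. Cacna1s (chr1:136052750-136119822, + strand), the subunit that carries the voltage-sensing segments and the pore, stood at 375 TPM in replicate 1 and 361 TPM in replicate 2, from 43231 and 43458 counts. Cacng1 (chr11:107703218-107716522, - strand), the gamma subunit, which crosses the membrane beside the pore, stood at 178 and 174 TPM in replicates 1 and 2. Cacna2d1 (chr5:15934691-16374511, + strand), the alpha2delta subunit outside the membrane and the known target of gabapentin, stood at 115 and 106 TPM. Cacnb1 (chr11:98001508-98023034, - strand), the cytoplasmic beta subunit needed to bring the channel to the tubule, was the lowest at 84.5 and 77.7 TPM. The libraries of these subunits did not overlap from one gene to the next, so the order Cacna1s, Cacng1, Cacna2d1, Cacnb1 held in both libraries and in both tables.

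Per copy of Cacna1s RNA the auxiliary subunits were all below 1. Within a library, the ratio to Cacna1s TPM was 0.478 ± 0.003 for Cacng1, 0.300 ± 0.009 for Cacna2d1 and 0.220 ± 0.007 for Cacnb1 (mean ± SD, n = 2). In the kallisto-layout table these ratios were 0.650 ± 0.010, 0.403 ± 0.010 and 0.292 ± 0.006. Cacna1s itself, the denominator, stood at 368 ± 9.8 TPM in the RSEM table and 260 ± 1.8 TPM in the kallisto-layout table. Of the 9 members with a mean of at least 100 counts, Cacna1s was the only one whose tables differed by 25% of the lower value or more, with RSEM 1.42-fold above the kallisto-layout table. Among the 9324 protein-coding genes with that many counts and a TPM above 0 in both tables, 11.5% differed so far in either direction and 3.81% with RSEM the higher, so 1 member in 9 is near the background share.

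Stac3 (chr10:127501686-127508823, + strand) encodes the adaptor that the voltage sensor needs for its place in the tubule and for coupling to the release channel. It stood at 179 TPM in replicate 1 and 163 TPM in replicate 2, from 4603 and 4407 counts. These values straddle those of Cacng1, and the pair of genes was the only pair of neighbours in the order of levels whose libraries overlapped. In the kallisto-layout table Stac3 stood at 190.5 and 167 TPM and Cacng1 at 168 and 170.1 TPM in replicates 1 and 2, so their order differed between the libraries there too.

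Ryr1, the skeletal muscle release channel, was the most abundant member. Ryr1 (chr7:29003344-29125179, - strand) stood at 882 TPM in replicate 1 and 806 TPM in replicate 2, which ranked it 53rd among protein-coding genes by mean TPM. With 335529 and 325256 counts, 0.954% and 0.918% of all gene counts, it ranked 11th by counts. The TPM of Ryr1 was 2.29 ± 0.08 times that of Cacna1s in the RSEM table and 2.93 ± 0.08 times in the kallisto-layout table (n = 2 libraries each). These are ratios of RNA and carry no statement about channel numbers.

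Ryr3, a second release channel known in mice mainly from young muscle and from the diaphragm, was close to the limit of detection. Ryr3 (chr2:112631355-113217096, - strand) stood at 0.15 TPM in replicate 1 and 0.17 TPM in replicate 2, from 57 and 30 expected counts. Ryr1 TPM exceeded Ryr3 TPM 5877-fold in replicate 1 and 4741-fold in replicate 2. These folds move with the way Ryr3 is counted, since they were 580 and 553 with posterior mean TPM and 5714 and 11171 over transcripts with a complete coding sequence. The posterior mean TPM in the same table, which adds a prior to every annotated transcript, put Ryr3 at 1.48 and 1.42 TPM, with deposited interval bounds of 0.27 to 3.52 in replicate 1 and 0.23 to 3.39 in replicate 2. A count of 30 to 57 over a transcript of 15422 nt is thin evidence, and the protein-coding gene Aven overlaps the 3′ end of Ryr3 on the opposite strand with 207 and 258 counts. The kit was directional per the labels, and whether the counting used strand is not stated in the labels or file headers.

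Both junctophilins were well expressed, with Jph2 the higher. Jph2 (chr2:163336242-163397993, - strand), the form shared with the heart, stood at 219 TPM in replicate 1 and 206 TPM in replicate 2. Jph1 (chr1:16964560-17097889, - strand), the form typical of skeletal muscle, stood at 148 and 146 TPM in replicates 1 and 2. The Jph1 to Jph2 ratio was 0.675 and 0.712 in the RSEM table and 0.709 and 0.749 in the kallisto-layout table, below 1 in all 4 readings.

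Trdn, which anchors the calcium-binding protein calsequestrin beside the release channel, was the second most abundant member by TPM. Trdn (chr10:33080554-33476709, + strand) stood at 544 TPM in replicate 1 and 529 TPM in replicate 2, from 31400 and 30969 counts. That level depended on which annotated transcripts were counted, as described below. In order of mean TPM the members were Ryr1 (844 ± 53.5), Trdn (537 ± 10.6), Cacna1s (368 ± 9.8), Jph2 (212 ± 9.6), Cacng1 (176 ± 3.4), Stac3 (171 ± 11.3), Jph1 (147 ± 1.1), Cacna2d1 (111 ± 6.4), Cacnb1 (81.1 ± 4.8) and Ryr3 (0.16 ± 0.01).

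In each family a single gene, or the pair of junctophilins, held nearly all of the RNA. Of the 27 paralogs of the members, 23 were below 1 TPM in both libraries and 3 of those were at 0 in both. Of all 55536 annotated genes of any type, 11508 reached 1 TPM in replicate 1 and 11240 in replicate 2. Most annotated genes of any type were thus below 1 TPM too. That set takes in noncoding genes and pseudogenes, and only 22028 of its genes are protein-coding. The share among protein-coding genes alone is not given, so whether the count of paralogs is particular to these families was not tested. The members held 99.98% and 99.97% of ryanodine receptor TPM, 98.9% and 99.4% of alpha1 TPM, 98.6% and 99.3% of beta TPM and 98.7% and 98.1% of alpha2delta TPM in replicates 1 and 2. For the Stac family the share was 99.9% in both libraries, and Jph3 and Jph4, the neuronal junctophilins, were at or below 0.13 TPM. The gamma family was the exception. Cacng1 held 72.1% and 72.2% of its TPM in replicates 1 and 2, and Cacng6, which encodes another gamma subunit known from skeletal muscle, held 24.97% and 24.54%, at 61.8 and 59.0 TPM. Cacng7 followed at 7.31 and 7.80 TPM.

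Ryr3 was not the second ryanodine receptor of these libraries by counts. It had 57 and 30 counts in replicates 1 and 2, beside 72 and 88 for Ryr2, the cardiac release channel. The levels were 0.15 and 0.17 TPM for Ryr3 and 0.20 and 0.24 TPM for Ryr2, at most 0.03% of ryanodine receptor TPM for either gene. Among the alpha1 genes, Cacna1a was the highest paralog in replicate 1 at 2.03 TPM, beside 0.62 TPM in replicate 2. Its counts ran the other way, at 68 in replicate 1 and 89 in replicate 2.

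Of 27 further triad and calcium store genes listed as partners, 23 exceeded 10 TPM in both libraries. The share of all genes above 10 TPM is not given here. The 9331 protein-coding genes with a mean of at least 100 counts had medians of 9.57 and 8.69 TPM in replicates 1 and 2. Genes of the calcium store stood highest. Atp2a1, the calcium pump that refills the store, was far above every member, and Casq1, the skeletal calsequestrin that Trdn anchors, had 1297 and 1262 TPM in replicates 1 and 2. Tmem38a (a potassium channel of the store), Srl (sarcalumenin), Hrc (a histidine-rich calcium-binding protein) and Jsrp1 (a junctional protein that binds the voltage sensor) had means of 551, 519, 363 and 221 TPM. In the RSEM table with all transcripts Trdn, at 537 ± 10.6 TPM, lay between Tmem38a and Srl. In the kallisto-layout table Trdn stood at 576 and 551 TPM in replicates 1 and 2, below Srl at 725 and 709 TPM and above Tmem38a at 519 and 508 TPM. Genes that shape or maintain the tubule spanned a wide range, with Bin1 at 296 ± 18.5, Speg at 120 ± 8.0, Sypl2 at 103 ± 5.3, Dysf at 33.0 ± 1.1, Cav3 at 23.6 ± 0.2 and Dnm2 at 14.5 ± 0.8 TPM.

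Several regulators of the channels lay below the members' median. Fkbp1a, which stabilises the closed release channel, had a mean of 78.7 TPM, and S100a1 had 78.1 TPM. The scaffold genes Homer1 and Homer2 had means of 48.1 and 17.1 TPM. Of store-operated calcium entry, Stim1 had a mean of 72.2 TPM and Orai1 of 16.3 TPM. Asph and Tmem38b had means of 89.4 and 28.2 TPM. Sln, the pump inhibitor sarcolipin, was at 0.19 and 0.18 TPM, and Rem1 and Rrad, which restrain calcium channels, were at or below 2.74 TPM.

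Between the libraries the 9 triad genes with at least 100 counts differed by little. Ratios were taken from expected counts with TMM scaling, which aligns the libraries on the bulk of their genes, as log2 of replicate 1 over replicate 2, so a negative value means lower in replicate 1. Among these 9 genes Jph1, with 17811 and 18644 counts in replicates 1 and 2, had the lowest value, -0.12 with a 95% counting interval of -0.15 to -0.09. Cacng1 followed at -0.10 (-0.15 to -0.04), and Stac3 was highest at 0.01 (-0.05 to 0.07). None of the 9 members with at least 100 counts differed by 25% of the lower value, beside 7.62% of the 9741 genes with that many counts. In 9 genes that background amounts to less than a single gene, so the count of 0 is near it.

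**Figure D2:**
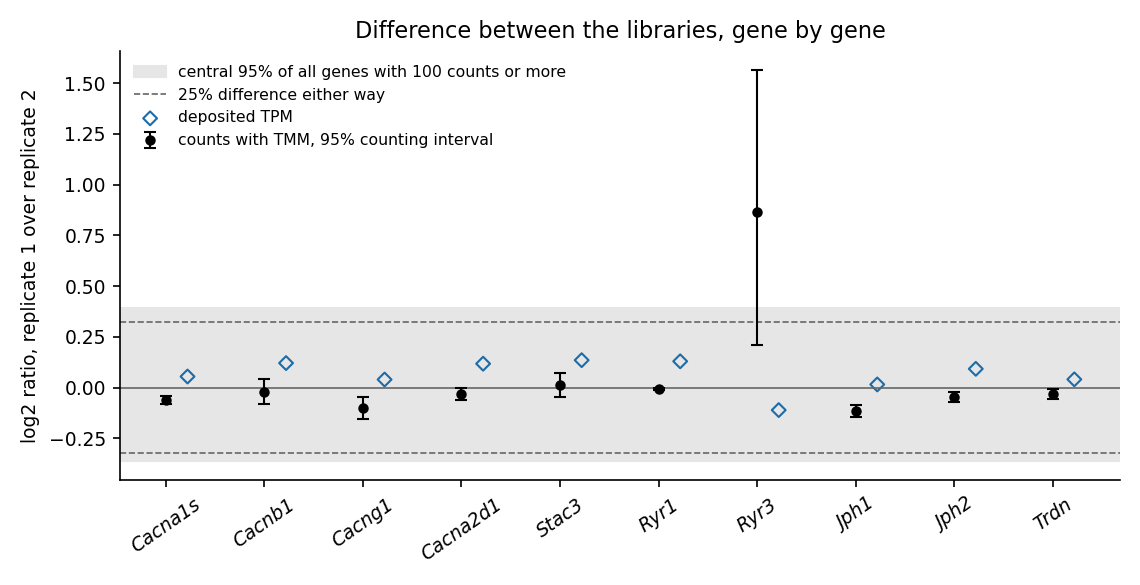
log2 ratio of replicate 1 over replicate 2 for each triad gene, from counts with TMM scaling (black, with 95% counting intervals) and from deposited TPM with a pseudocount of 0.1 (diamonds); the grey band holds the central 95% of all genes with 100 counts or more, -0.36 to 0.39. The 9 abundant genes lie inside the band and inside the dashed lines of a 25% difference on both scales, and Ryr3 has a wide interval.

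The intervals cover counting error only. For 6 of the 9 genes the interval lay wholly below 0 and for none wholly above, beside 12.4% of the 9741 genes below and 11.9% above. The 9 genes had at least 4293 counts in each library, and higher counts give narrower intervals, so the shares are not matched for depth. The members' median was -0.03 and the median of all genes -0.002. The sign depends on the scale. With TMM 8 of the 9 members were lower in replicate 1, as were 50.7% of all genes. With library totals 7 of the 9 were higher in replicate 1, as were 68.8% of all genes. In deposited TPM all 9 were higher, by 0.02 to 0.13, as were 78.1% of all genes. In deposited TPM the median of all genes was itself 0.13 above 0, and the members' median of 0.09 lay below it. A difference in the number of muscle fibres and a difference in RNA per fibre cannot be told apart in such tissue libraries.

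Some markers of other cells differed between the same libraries by more than any of these 9 genes. All 4 adipocyte markers were over 25% higher in replicate 1 (median log2 ratio 0.38), as were 3 of the 5 counted endothelial markers (median 0.42) and 2 of the 5 counted smooth muscle and pericyte markers, with Kdr at 0.79 and Rgs5 at 0.33. The 8 fast fibre markers had a median of -0.08, with Myh1 alone above 0 at 0.18, and the 6 slow fibre markers a median of 0.06. Of the 4 fibroblast markers, Col1a2 was lower in replicate 1 at -0.36 and the others lay between -0.19 and 0.06. The immature fibre markers Myh8 and Myh3 were at -0.30 and -0.26. None of the counted immature fibre, satellite cell, cardiac, nerve or leukocyte markers differed by 25% of the lower value, and Myh11, Tagln and Lyz2, at -0.09, -0.07 and 0.05, were nearer to 0 than Jph1. The part of these differences in the members' ratios was not tested.

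Ryr3 gave opposite signs on the 2 scales. Its log2 ratio was 0.86 from counts (95% counting interval 0.21 to 1.56) and -0.11 from TPM with a pseudocount of 0.1. In replicate 1 all 57 counts were assigned to the full-length transcript Ryr3-201. In replicate 2, 28.4 of the 30 counts went to the full-length transcript Ryr3-210, and the remaining 1.64 counts went to short intron-retaining transcripts that made up 58.8% of the gene's TPM. Nothing about Ryr3 forms can be read from counts of this size.

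The transcript tables showed which annotated forms made up each level. The same transcript led in both deposited tables for 8 of the 10 members, by mean share of the gene's TPM and with Ryr3 counted although its leader differed between the libraries, and the leading transcript held over 50% of TPM for 7 of the 10 in the RSEM table. No share over all genes is given beside these counts, and genes with few annotated transcripts meet them readily. Whether the counts are a trait of the triad genes was therefore not tested. Cacng1 had a single annotated transcript, and Jph1 and Jph2 had 2 each. Jph1-201 and Jph2-201 held 99.8% and 98.8% of their genes' TPM in the RSEM table. The coding sequences of these junctophilin transcripts have 660 and 696 codons. Ryr1-202, of 5035 codons, held 95.6% ± 0.5 of Ryr1 TPM in the RSEM table and 96.4% ± 0.5 in the kallisto-layout table.

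**Figure D3:**
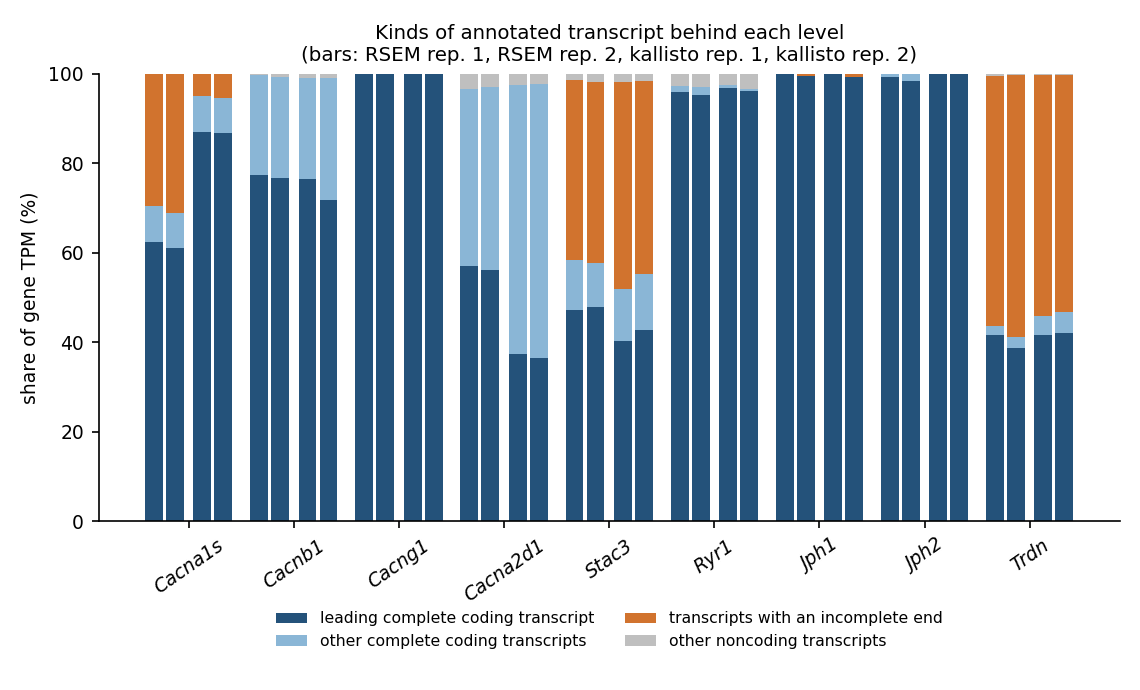
Share of each gene's TPM (percent) by kind of annotated transcript, with 4 bars a gene for replicates 1 and 2 of the RSEM table and replicates 1 and 2 of the kallisto-layout table; Ryr3 is left out. Transcripts with an incomplete end take over 40% of Stac3 and over 50% of Trdn in all 4 readings, and 29.6% and 31.1% of Cacna1s in the RSEM table against 4.99% and 5.52% in the kallisto-layout table.

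For Cacna1s, Stac3 and Trdn a large share of TPM fell on short annotated fragments whose start or end is marked incomplete. Cacna1s-203, a noncoding fragment of 1001 nt from the 3′ end of the gene, took 5.71% and 5.93% of Cacna1s counts but 28.6% and 29.1% of its TPM in replicates 1 and 2 of the RSEM table. In the kallisto-layout table the same fragment took 4.85% and 5.52% of TPM, which is where the tables part on this gene. In the RSEM table Stac3-203, of 373 nt, took 10.9% and 11.1% of counts and 40.2% and 40.5% of TPM in replicates 1 and 2. For Trdn the fragments Trdn-205 (614 nt) and Trdn-206 (1023 nt) took 31.3% ± 0.4 and 25.9% ± 1.4 of RSEM TPM. Trdn-201, of 693 codons, took 81.2% and 79.3% of RSEM counts but 41.5% and 38.7% of RSEM TPM. In the kallisto-layout table Trdn-205 took 37.6% ± 1.8 and Trdn-206 15.6% ± 1.2 of TPM.

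Fragments of this kind also took a large share in genes outside the triad. In the RSEM table they held over 20% of TPM for 3 of the 9 counted members and for 14.8% of the same 9324 protein-coding genes. By this share Trdn, Stac3 and Cacna1s stood above 98.6%, 95.5% and 91.4% of those genes. In the other counted members the share was at most 0.44%. Counting transcripts with a complete coding sequence alone, Trdn stood at 227 ± 13.5 TPM, Cacna1s at 257 ± 10.7 TPM and Stac3 at 99.3 ± 7.4 TPM, while the other abundant members changed by less than their SD. Ryr3 stood at 0.15 and 0.07 TPM in replicates 1 and 2 when counted so. In both tables Stac3 then lay below Jph1 and Cacna2d1 within each library. Trdn then lay below Cacna1s in the RSEM table, but in the kallisto-layout table it stayed above, at 265 and 257 TPM for Trdn and 248 and 245 TPM for Cacna1s in replicates 1 and 2. Ryr1 was 3.19 ± 0.07 times Cacna1s on that scale, and 3.004 ± 0.083 times in the kallisto-layout table counted the same way, so the tables lay closer together than with all transcripts.

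Cacna1s RNA was almost wholly of the form with the 57-nt exon. This exon, known as exon 29 and numbered 29 of 44 in Cacna1s-204, lengthens a loop of the voltage sensor and is known to be skipped in the embryonic channel. Transcripts that hold it made up 99.7% and 100% of the TPM over the exon in replicates 1 and 2 of the RSEM table, and 92.1% and 92.9% in the kallisto-layout table. The gap between the tables exceeded the spread between the libraries. The complete transcript without the exon, Cacna1s-202, held 0.22% and 0% of Cacna1s TPM in the RSEM table and 7.36% and 6.75% in the kallisto-layout table.

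Ryr1 likewise showed almost only the form with the 15-nt exon, the known alternative region called ASI. Its inclusion was 98.7% and 98.3% in replicates 1 and 2 of the RSEM table and 99.6% and 99.7% in the kallisto-layout table. The transcript taken as lacking it, Ryr1-201, carries other bases at this place, a 2-nt annotated exon among them, so the annotation holds no transcript that differs from Ryr1-202 by this exon alone. Ryr1-208, with 3 further small exons of 30, 27 and 21 nt, held 0.10% ± 0.11 of the TPM over those exons in the RSEM table.

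**Figure D4:**
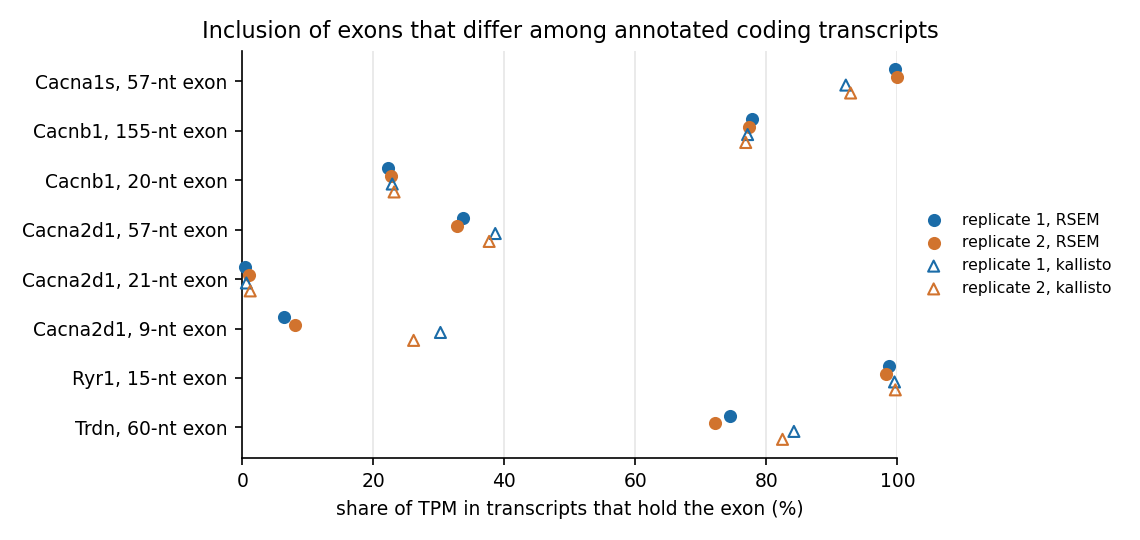
Share of TPM (percent) in coding transcripts that hold each exon, among coding transcripts that span it, for replicates 1 and 2 of the RSEM table (circles) and of the kallisto-layout table (triangles). Cacna1s and Ryr1 are near full inclusion, the Cacnb1 pair stands near 77% and 23% in every reading, and the Trdn exon and the 57-nt and 9-nt exons of Cacna2d1 differ more between tables than between libraries.

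Cacnb1 was a mixture of forms that differ in both the start and an internal exon. Cacnb1-204, of 477 codons, starts at the downstream position 98018372 and holds the 155-nt exon. It took 77.4% and 76.7% of Cacnb1 TPM in replicates 1 and 2 of the RSEM table and 76.4% and 71.7% in the kallisto-layout table. Cacnb1-201, of 597 codons, starts 4262 nt upstream at 98022634 and holds the 20-nt exon, and it took 22.2% and 22.5% of TPM in the RSEM table. The 155-nt exon is known from the skeletal muscle form of the subunit, and its inclusion was 77.7% and 77.3% in the RSEM table and 77.1% and 76.8% in the kallisto-layout table.

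In the annotation the 155-nt exon also occurs with the upstream start. The transcripts with that combination, Cacnb1-202 of 524 codons and Cacnb1-203 of 677 codons, had 0 counts in both libraries of the RSEM table. In the kallisto-layout table Cacnb1-202 had 0% of Cacnb1 TPM in replicate 1 and 4.39% in replicate 2, and Cacnb1-203 stayed at or next to 0. All transcripts from the upstream start together held 22.2% and 22.5% of TPM in the RSEM table and 22.7% and 27.3% in the kallisto-layout table. The RefSeq start of the downstream window shown above coincides with the first base of Cacnb1-204, and that of the upstream window with the first base of Cacnb1-203. Cacnb1-201 begins a few bases further upstream, so its first bases stand in lower case there.

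Cacna2d1 had a pair of exons in partial use. The 57-nt exon, held by Cacna2d1-201 alone, was included at 33.7% and 32.7% in replicates 1 and 2 of the RSEM table and at 38.6% and 37.7% in the kallisto-layout table. A 9-nt exon at chr5:16342552-16342560, held by Cacna2d1-205 alone, was included at 6.33% and 8.05% in the RSEM table and at 30.2% and 26.1% in the kallisto-layout table. A 21-nt exon at chr5:16341990-16342010 was nearly unused, at 0.67% ± 0.43 in the RSEM table. The leading transcript changed with the table, since Cacna2d1-202 held 56.6% ± 0.6 of TPM in the RSEM table and Cacna2d1-201 held 37.0% ± 0.6 in the kallisto-layout table. The other long transcript, Cacna2d1-205, held 6.91% ± 1.20 in the RSEM table and 27.3% ± 2.7 in the kallisto-layout table, where Cacna2d1-202 held 31.8% ± 3.1. These long transcripts have 7436 and 7311 nt. Cacna2d1-205 differs from Cacna2d1-202 by the 9-nt exon, by the ends of its neighbours and by longer outer ends.

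In Trdn the 60-nt exon was included at 74.4% and 72.2% in replicates 1 and 2 of the RSEM table and at 84.2% and 82.5% in the kallisto-layout table. Transcripts that hold it are Trdn-201 and the fragment Trdn-205, and those without it are Trdn-206 and Trdn-207, so the value is largely set by fragments. Stac3-202 led Stac3 in the RSEM table with 47.5% ± 0.5 of TPM, and the fragment Stac3-203 led in the kallisto-layout table with 44.7% ± 2.3. Both complete Stac3 transcripts encode the same number of codons, 360.

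Intron-retaining and other noncoding transcripts took 5.33% and 5.69% of the members' summed TPM in replicates 1 and 2 of the RSEM table and 1.69% and 2.01% in the kallisto-layout table, with Cacna1s-203 the main part of the gap. Gene by gene, 8 of the 9 counted members stood below the median of 5.49% over protein-coding genes in the RSEM table, and Cacna1s stood above it at 29.6% and 31.1%. In the kallisto-layout table that median was 7.90%, and Cacna1s stood below it at 4.85% and 5.52%, as did the other counted members. In the RSEM table Ryr1 had 2.78% and 2.98%, Cacna2d1 3.52% and 3.08%, and the junctophilins and Cacng1 under 0.5%.

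No member shared reads with another gene in the deposited gene table, where the posterior SD of the count was 0 for all 10 in both libraries. Genes annotated on top of the members were nearly silent, with at most 36 counts within the 9 abundant members and with Aven over Ryr3 the exception. The antisense gene Gm26604 within Ryr1 had 2 and 4 counts, and Gm37014 within Cacna1s had 33 and 36.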

How the data were processed

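Each library began with 300 ng of total RNA, a directional kit, ribosomal RNA reduction and ERCC spike-ins, per the labels' protocols. On mm10 with GENCODE M21 there were 3 deposited tables a library, namely RSEM-style tables by gene and by transcript and a kallisto-style table by transcript, whose values were summed per gene. Per the file headers, the authors' tables hold expected counts (estimated counts, in which a read may be divided), TPM, FPKM and the percent of a gene in each isoform. Program versions are not given in the labels or headers. Spike-in and other rows that name no gene took 0.527% of counts in replicate 1 and 0.474% in replicate 2 and were left out.

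Levels used the deposited TPM. For ratios of replicate 1 over replicate 2, expected counts were rounded and scaled by TMM in edgeR 4.0.16 (14370 genes averaging 10 counts or more), with 0.5 counts added. Intervals are exact binomial 95% intervals; reads are not independent molecules, so they cover counting error only. A call needed a difference of 25% of the lower value and an average of 100 counts. A transcript's share is its part of the gene's TPM, described from 5%, and exon inclusion sums coding transcripts that span the exon. Incomplete transcripts carry the annotation's tag of an incomplete start or end. Alternatives were DESeq2 1.42.0 factors, library and spike-in totals, TPM, FPKM, posterior means, other minimums and priors, and each library alone. The ratio step was tested on simulated libraries of Poisson counts, which hold counting error only. The real libraries differed well beyond that (chi-square per degree of freedom 12.1). The simulation thus checks the calculation and not how the intervals hold for these libraries. Other software was Python with numpy 2.4.6, scipy 1.17.1, pandas 2.3.3 and matplotlib 3.10.9, and R 4.3.3.

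The members, the partner, paralog and marker lists and the naming rule (all members, and listed genes at 10 TPM in both libraries or past a call) were chosen with earlier results of these data known. Listed genes outside that rule (Ryr2, Cacng7, Cacna1a, Jph3, Jph4, Sln, Rem1, Rrad, Nppa, Tnni3, Tnnt2, Myh3, Myh11) and the overlapping genes were named after their values were seen. Some listed partner genes that meet the rule are counted but not reported here by name.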

Additional observations from a re-analysis of the deposited data

How the results depend on the processing

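No paired analysis was possible because the series has 1 group, so no second group shares the replicate numbers. No member with at least 100 counts was past a 25% difference under any of the scalings, count minimums, priors, tables or fold thresholds tried. The members' median log2 ratio between replicates, -0.033 with TMM, was 0.029 with library totals, -0.125 with spike-in totals, 0.092 in TPM with a pseudocount of 0.1 and 0.092 with a pseudocount of 1, while the median of all genes was 0.06, -0.09, 0.13 and 0.12 on those scales. The median level of 174 TPM was 161 TPM over transcripts with a complete coding sequence, an alternative added after the data were seen, and 129 as FPKM, which has another scale. Ryr1 over Cacna1s TPM, 2.29, was 2.93 in the kallisto-layout table and 3.19 over complete coding transcripts. The members' noncoding share, 5.51%, was 1.85% in the kallisto-layout table. With 1 library left out, the median level ran from 168 to 179 TPM, Ryr1 over Cacna1s from 2.23 to 2.35, the noncoding share from 5.33% to 5.69%, and the number of members whose leading transcript held over 50% from 7 to 8. Apart from leaving out a library, where a single library always lies within the SD of the mean, 52 of 106 values moved by less than the spread and 54 moved further. The ratios, none of them called, did change sign with the scale, and Ryr3 was 0.86 from counts and -0.11 in TPM. The posterior mean raised Ryr3 to 1.48 and 1.42 TPM in replicates 1 and 2. Depth limits Ryr3, the genes below 1 TPM and the minor transcript forms most. The transcript shares are limited by the annotation and by 2 libraries, and the cause of differences between tables was not tested.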
